A study of Mus musculus with 3 samples.

Results

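The microRNA (miRNA) signals of normal mouse double-positive thymocytes were read from 1 of the 3 arrays of a study of T-cell leukaemia, and its 450 human-named miRNA probes were ranked by brightness. The sample consisted of control CD4+CD8+ thymocytes of Balb/c mice, listed as normal, while the study's other samples express ICN1, the intracellular part of NOTCH1. Its total RNA was purified with Trizol and labelled with the dye Hy3 for a miRCURY LNA array, a glass slide spotted with short capture probes that contain locked nucleic acids. A pool of all 3 samples, labelled with Hy5, shared the slide and was not used here. The labels give neither the age nor the number of the mice, and with 1 array no difference between animals can be measured and no test is given.

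The array held 6720 spots for 1491 probe identifiers. A probe was a member if its name started with hsa-miR or hsa-let, the prefix for human miRNAs, and if it was not a mismatch control, which left 450 probes with 446 distinct names. Net signal is the mean, over the usable spots of a probe, of the Hy3 signal mean minus the local background median, in scanner intensity units. Of the 1800 member spots, 18 carried the quality flag 3 and were left out, so that 433 probes kept 4 spots, 16 kept 3 and 1 kept 2. A probe counted as detected if at least 1 of every 2 usable spots exceeded the background median by more than 2 background standard deviations. Errors are standard deviations (SD) over the spots of 1 array, and n is 4 spots unless given otherwise, so they hold spotting and scanning error only. The number of arrays limits the precision. Capture probes differ in affinity and labelling, and the order of net signals therefore ranks probes and not the number of miRNA molecules in the cells.

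Double-positive thymocytes are the main population of the thymus. They carry CD4 and CD8 together, have assembled a T-cell receptor and undergo positive and negative selection on it. A mature miRNA is cut from a hairpin precursor and loaded into an Argonaute protein, which it guides to messenger RNAs that pair with the seed, the bases 2 to 8 counted from 1 at its 5′ end. In the T lineage, miR-181a is known for raising the sensitivity of T-cell receptor signalling, the miR-17-92 cluster for supporting proliferation and survival, and miR-15/16 for lowering BCL2, while miR-142 marks blood cells in general.

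The sequences below are those behind some of the brightest mouse-named probes and behind family members with very different signals. Those of the bright miR-142-3p, miR-142-5p and miR-671 probes are not shown. The sequences given are mature mouse miRNAs from RefSeq (GRCm38.p6), written 5′ to 3′ with the seed in capitals. They were matched by name, because the deposited files give no probe sequences.
miR-451a: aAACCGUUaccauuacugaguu
let-7a-5p: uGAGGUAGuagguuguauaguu
let-7c-5p: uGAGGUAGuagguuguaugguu
let-7b-5p: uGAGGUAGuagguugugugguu
let-7i-5p: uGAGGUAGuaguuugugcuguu
let-7e-5p: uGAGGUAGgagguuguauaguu
let-7f-5p: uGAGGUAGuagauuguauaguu
miR-16-5p: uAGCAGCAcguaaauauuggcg
miR-15b-5p: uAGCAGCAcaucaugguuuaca
miR-106b-5p: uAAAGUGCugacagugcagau
miR-93-5p: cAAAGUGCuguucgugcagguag
miR-29a-3p: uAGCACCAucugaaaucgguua
miR-29c-3p: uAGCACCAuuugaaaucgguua
miR-181a-5p: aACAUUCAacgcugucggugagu
miR-144-3p: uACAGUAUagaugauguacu
The let-7 lines share 1 seed, as do the miR-15/16, the miR-106b and miR-93 and the miR-29 lines. Thus 6 of the 11 bright probes described below, those for miR-16, miR-106b, miR-451 and the 3 let-7 miRNAs, fall into 4 seeds shown here.

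Of the 450 probes, 253 were detected, which is 56.2%. The counts of detected probes in each family or list below are to be read beside this share. The brightest class, with a net signal of at least 5000, held 11 probes, the middle class from 500 up to that limit held 49, and 193 detected probes were dim. The remaining 197 were at background. The median net signal was 8916 in the bright class, 1463 in the middle class, 61.6 in the dim class and 1.76 in the background class. The 11 bright probes gave 48.4% of the summed net signal of all detected members, and the miR-451 probe alone gave 10.8%. The plot of ranked signals shows no gap at either class limit.

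**Figure D1:**
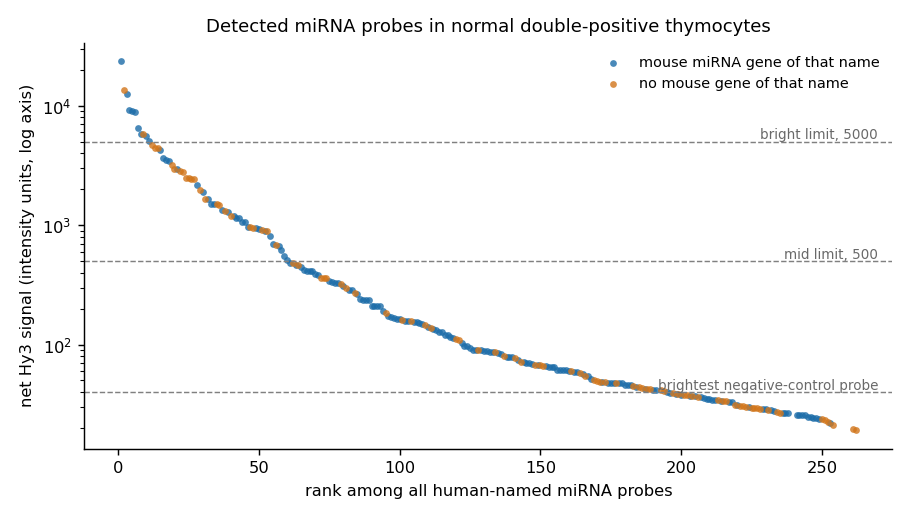
Net Hy3 signal (intensity units, log axis) of the 253 detected probes against their rank among all 450 human-named miRNA probes, coloured by whether a mouse miRNA gene has the same name. The signals fall from 23628, with gaps below miR-451, miR-142-3p and miR-142-5p, and show no gap at either class limit (dashed, 5000 and 500). At or below the brightest negative-control probe (lowest dashed line, 40.0) lie 59 detected probes.

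The limits were chosen as round numbers and divide neighbouring probes. Just above 5000 lay miR-106b at 5587 ± 116 and miR-671 at 5024 ± 326, and just below it miR-659 at 4660 ± 324 and miR-513 at 4428 ± 137. At the lower limit, miR-23b (551 ± 14.5) and miR-20b (512 ± 8.23) fell inside the middle class, and miR-382 (487 ± 53.0) and miR-519e* (484 ± 105) outside it. Spots on both sides of the limit of 5000 overlapped, as did those around 500. The dimmest detected probes were miR-588 at 19.5 ± 5.38 and miR-518a at 19.1 ± 6.05. The brightest undetected ones were miR-508 at 41.8 ± 13.0 and miR-196b at 26.7 ± 11.1, each with only 1 of 4 spots above its limit. Of 8 negative-control probes, 3 were detected by the same rule, with net signals from -3.36 to 40.0 over all 8, and 320 empty spots averaged 1.12 ± 1.02. Above the brightest negative control lay 194 of the 253 detected probes, and all 60 bright and middle probes were among them.

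The brightest probe was that for miR-451, a miRNA abundant in red-cell precursors that is cut by Argonaute 2 without Dicer. Its 4 spots read 23393, 23722, 24238 and 23158, with a mean of 23628 ± 468. No spot of any other member reached its dimmest spot. Its precursor lies on chromosome 11 beside that of miR-144, with which it shares a primary transcript in red cells. The miR-144 probe was dim at 89.1 ± 1.44, and that for miR-486, a further red-cell miRNA, was dim at 285 ± 6.94. All 3 probes of the erythroid list were thus detected, with a summed net signal of 24002 that came almost wholly from miR-451, and the part of erythroid RNA in this sample was not tested.

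Both arms of the miR-142 hairpin were bright. The miR-142-3p probe read 12617, 12510, 12507 and 12191 (mean 12456 ± 184), and the miR-142-5p probe read 9122, 8957, 9025 and 8559 (mean 8916 ± 247). The spot ranges of the 2 arms did not overlap. It was the only hairpin with both arms in the bright class among the members named by arm. The hairpin of miR-181a also gave near-equal arms, at 175 ± 5.75 for miR-181a and 171.6 ± 1.502 for miR-181a*, with overlapping spots. In some other hairpins 1 arm stood out, as for miR-191 at 1296 ± 37.8 and miR-191* at 23.9 ± 8.09. The probe that serves both miR-17-5p and miR-106a read 1057 ± 28.6, and miR-17-3p was at background (6.30 ± 1.48).

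Of the let-7 family, which lowers growth and cell-cycle messages and is kept low in stem cells by LIN28, all 9 probes were detected. The bright class held let-7a with spots of 9142, 9439, 9267 and 9068 (mean 9229 ± 162), let-7c at 8996 ± 65.6 and let-7b at 5821 ± 127. The spots of let-7a and let-7c overlapped, while those of let-7b lay below both. The middle class held let-7i at 3525 ± 70.5 and let-7d at 697 ± 25.3. The dim members were let-7e at 391 ± 18.4, let-7g at 380 ± 11.0, miR-98 at 343 ± 3.62 and let-7f at 93.3 ± 4.70.

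These probes differ greatly in signal although the miRNAs differ in few bases. From let-7a to let-7c the change is A19G, counted from 1 at the 5′ end with the base of let-7a first. From let-7a to let-7e it is U9G, and from let-7a to let-7f it is G12A. The let-7a, let-7d and let-7f-1 precursors lie within 10000 bases of each other on chromosome 13, and their probes were bright, middle and dim. Since let-7a has a further gene outside that stretch and let-7f another on the X chromosome, the probes do not read 1 locus each. A control probe named let-7a-e, which is not a member, read 10615 ± 165.

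**Figure D2:**
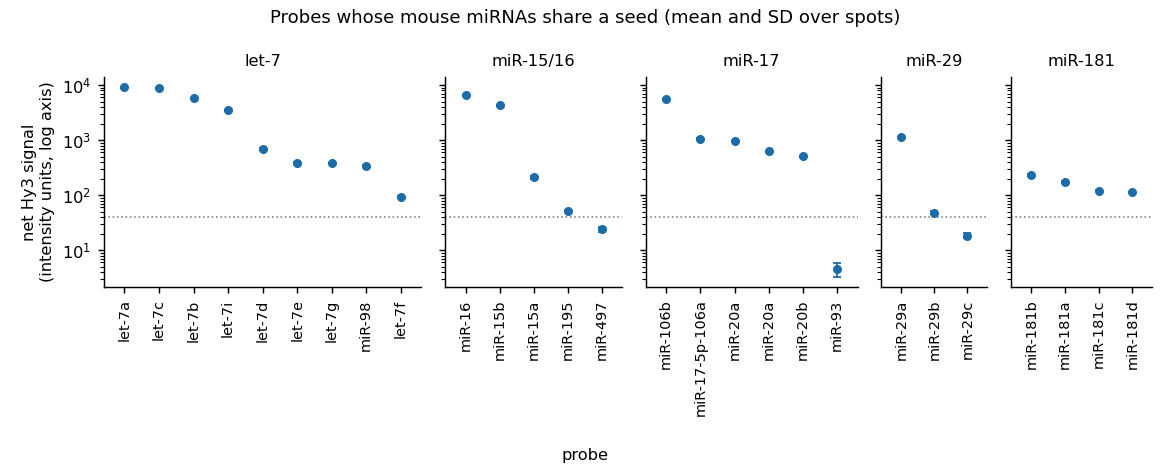
Net Hy3 signal (intensity units, log axis) of probes whose mouse miRNAs share a seed, as the mean with SD over replicate spots. The dotted line is the brightest negative-control probe (40.0), and within 1 seed the probes range from 93.3 to 9229 for let-7, 24.1 to 6516 for miR-15/16, 4.57 to 5587 for miR-17 and 18.3 to 1143 for miR-29, against 114 to 234 for miR-181.

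The miR-15/16 family was detected with all 6 probes. The miR-16 probe was the most even of the bright ones, with spots of 6493, 6545, 6520 and 6505 (mean 6516 ± 22.3). The miR-15b probe, whose gene neighbours 1 of the 2 miR-16 genes on chromosome 3, led the middle class among mouse-named probes at 4281 ± 72.0. The other members were dim: miR-15a at 210 ± 8.95, miR-195 at 51.4 ± 1.73, miR-424 at 27.1 ± 0.634 and miR-497 at 24.1 ± 2.72 over 3 spots. The miR-424 and miR-497 probes lay below the brightest negative control. The mouse gene corresponding to human miR-424 has another number, so that probe counts as having no mouse gene of its name.

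Of the list for the miR-17-92 cluster and its paralogs, 13 of 15 probes were detected. That list leaves out miR-18a*, which lies in the cluster and was at background (17.9 ± 0.406). The brightest probe of the list was miR-106b, with spots of 5713, 5611, 5433 and 5592 (mean 5587 ± 116). The middle class held the joint miR-17-5p and miR-106a probe at 1057 ± 28.6, a pair of miR-20a probes at 965 ± 19.2 and 624 ± 15.5, and miR-20b at 512 ± 8.23. The 2 miR-20a probes carry 1 name and did not overlap in their spots. The dimmest detected members were miR-92 at 25.5 ± 2.18 and miR-92b at 24.2 ± 1.29, both below the brightest negative control.

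The miR-106b locus on chromosome 5 showed the widest spread among neighbouring genes of this list. Its 3 miRNAs, miR-106b, miR-93 and miR-25, come from 1 intron of the Mcm7 gene. The miR-25 probe was dim at 78.5 ± 2.42, and the miR-93 probe was at background with spots of 4.38, 4.99, 6.07 and 2.84 (mean 4.57 ± 1.35). The miR-93 probe thus lay within the range of the negative-control probes, and miR-93 shares its seed with miR-106b.

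The miR-29 family, which targets DNA methyltransferases and matrix genes, showed a similar split within a seed. The miR-29a probe was in the middle class with spots of 1141, 1147, 1163 and 1120 (mean 1143, coefficient of variation 1.58%). The miR-29b probe was dim at 48.4 ± 3.09 and the miR-29c probe was at background at 18.3 ± 1.94. The mature miR-29a and miR-29c differ at 1 base, C10U with the base of miR-29a first. By contrast the miR-26 probes, for miRNAs that lower EZH2, lay together in the middle class at 1516 ± 19.4 for miR-26a and 1490 ± 45.4 for miR-26b, with overlapping spots.

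All 4 probes of the miR-181 family were detected and dim. The miR-181b probe read 242, 232, 237 and 227 (mean 234 ± 6.56), and miR-181a read 166, 177, 179 and 177 (mean 175 ± 5.75). The miR-181c probe was at 120 ± 1.83 and the miR-181d probe at 114 ± 0.742 over 3 spots. All 4 lay well above the brightest negative control, and above the dim-class median of 61.6.

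The miR-23/27/24 clusters, of which miR-27 and miR-24 are known to restrain helper T-cell differentiation, were detected with all 6 probes. The middle class held miR-23a at 942 ± 17.8 and miR-23b at 551 ± 14.5. The dim probes were miR-24 at 417 ± 15.2 over 3 spots, miR-27b at 164 ± 5.12 and miR-27a at 104 ± 2.78. Also dim was miR-189, an old name for an arm of miR-24, at 37.3 ± 0.712 over 3 spots. In the miR-30 family 6 of 7 probes were detected. The miR-30c probe (1643 ± 17.9) and the miR-30b probe (1200 ± 24.9) were in the middle class. The dim ones were miR-30a-5p (236 ± 3.04), miR-30e-5p (127 ± 5.15), miR-30d (90.8 ± 1.98) and miR-30e-3p (35.6 ± 0.417). The miR-189 and miR-30e-3p probes lay below the brightest negative control.

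All 12 probes of the list of lymphocyte miRNAs were detected, 2 in the middle class and 10 dim, against 56.2% detected over all 450 members. The brightest were miR-191 at 1296 ± 37.8 and miR-128a at 927 ± 40.9. They were followed by miR-21, which rises on T-cell activation, at 410 ± 5.92 and by miR-128b at 310 ± 15.4. The miR-128a and miR-128b probes name 1 mature sequence of 2 genes, and their spots did not overlap. The dimmest were miR-150, which targets MYB and is abundant in mature lymphocytes, at 44.4 ± 3.64 and miR-221 at 36.2 ± 0.607. The miR-221 probe lay below the brightest negative control.

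Markers of other cell types were mostly dim or at background, with 1 exception besides miR-451. The same holds for the members as a whole, of which 42.9% were dim and 43.8% at background. Whether these markers differ from other members was not tested. Of the myeloid and platelet list 1 of 3 probes was detected, the neutrophil and macrophage miRNA miR-223 at 164 ± 4.55, while miR-126 and miR-126* were at background (6.65 ± 1.06 and -4.97 ± 0.519). Of the stromal and endothelial list 4 of 8 were detected. Its exception was miR-214, with spots of 2307, 2189, 2175 and 2036 (mean 2177 ± 111), whereas miR-199a, which comes from the same primary transcript as miR-214, was at background at -3.09 ± 0.575. The remaining detected stromal probes were miR-125b (90.2 ± 3.04), miR-145 (28.3 ± 1.30) and miR-10a (22.1 ± 1.61), and miR-143 was at background (18.1 ± 1.64). The miR-145 and miR-10a probes lay below the brightest negative control.

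Of the epithelial list 3 of 7 were detected, miR-200b at 61.7 ± 2.06, miR-203 at 56.9 ± 2.36 and miR-200c at 31.1 ± 2.40. The miR-200c probe lay below the brightest negative control. Of the muscle and liver list 3 of 4 were detected, miR-1 at 58.7 ± 2.65, the joint miR-133a and miR-133b probe at 38.7 ± 2.88 and the liver miRNA miR-122a at 34.9 ± 0.615. The last 2 lay below the brightest negative control. Of the neural list 4 of 6 were detected. The brightest was miR-129 at 267 ± 46.8, beside miR-137 at 66.2 ± 0.444 and miR-124a at 65.3 ± 6.36. The miR-9 probe read 37.9 ± 1.47 over 3 spots and lay below the brightest negative control. The summed net signals were 166 for the myeloid and platelet, 2331 for the stromal, 152 for the epithelial, 158 for the muscle and liver and 440 for the neural list. The part of other cells in these signals was not tested.

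**Figure D3:**
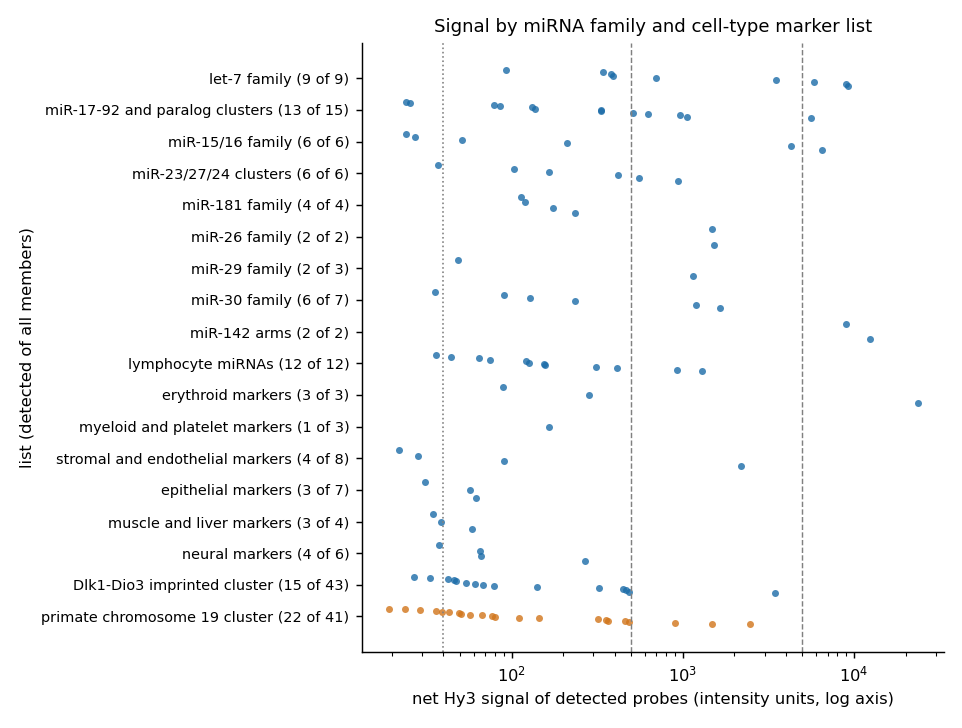
Net Hy3 signal (intensity units, log axis) of the detected probes of 18 lists, 1 point per probe (vertical scatter within a row only separates points), with detected and total members in parentheses. Dashed lines mark 500 and 5000 and the dotted line the brightest negative-control probe; miR-451 at 23628 stands alone in the erythroid row, and the 22 detected probes of the primate cluster (orange) reach 2463.

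The imprinted Dlk1-Dio3 region carries a large miRNA cluster on mouse chromosome 12 that is expressed chiefly in embryo, placenta and brain. Of its 43 probes 15 were detected, against 56.2% of all 450 members. The median net signal was 8.70 against 29.5 over all 450 members. Without the spots of flags 2, 3 and 4, 16 of its probes were left with a median of 64.6, beside 88.6 over the 260 members left. All 190 members lost in this way were at background, and 791 of the 1800 member spots carried flag 2. The brightest of the cluster was miR-494 with spots of 3576, 3544, 3475 and 3238 (mean 3458 ± 153), the only one above the dim class. It was followed by miR-382 (487 ± 53.0), miR-370 (467 ± 32.5) and miR-381 (449 ± 113). The dimmest detected ones were miR-432* at 33.3 ± 1.52 and miR-377 at 26.8 ± 0.969, both below the brightest negative control. The miR-494 probe therefore stood apart from its neighbours in the cluster.

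A mouse miRNA gene of the same name was listed in RefSeq for 275 of the 450 probes, and for 175 none was listed. Of the former 165 were detected (60.0%), of the latter 88 (50.3%). Probes with a mouse name made up 9 of the 11 bright, 27 of the 49 middle, 129 of the 193 dim and 110 of the 197 background probes. Detection was thus common among probes for which no mouse gene of that name was listed, and it cannot be told from these files which RNA such a probe captured.

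Among the 25 brightest probes 14 had a mouse name and 11 had none. The 11 without began with miR-612, second of all probes, with spots of 13225, 13592, 13858 and 13500 (mean 13544 ± 261). The miR-663 probe followed with spots of 5517, 6260, 6275 and 5228 (mean 5820 ± 530), overlapping those of let-7b and miR-106b. In the middle class came miR-659 (4660 ± 324), miR-513 (4428 ± 137), miR-498 (4399 ± 81.4), miR-658 (3175 ± 442), miR-373* (2944 ± 58.0), miR-769-3p (2850 ± 38.1), miR-623 (2798 ± 98.6), miR-583 (2474 ± 56.3) and miR-518c* (2463 ± 57.1). The mouse-named probes of the 25 not yet given were miR-320, which is made without Drosha, at 3674 ± 60.2 and miR-185 at 2930 ± 109. Of the 24 neighbouring pairs in this order, 16 overlapped in their spots, so the exact order below the first few probes is not resolved even within this array.

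**Figure D4:**
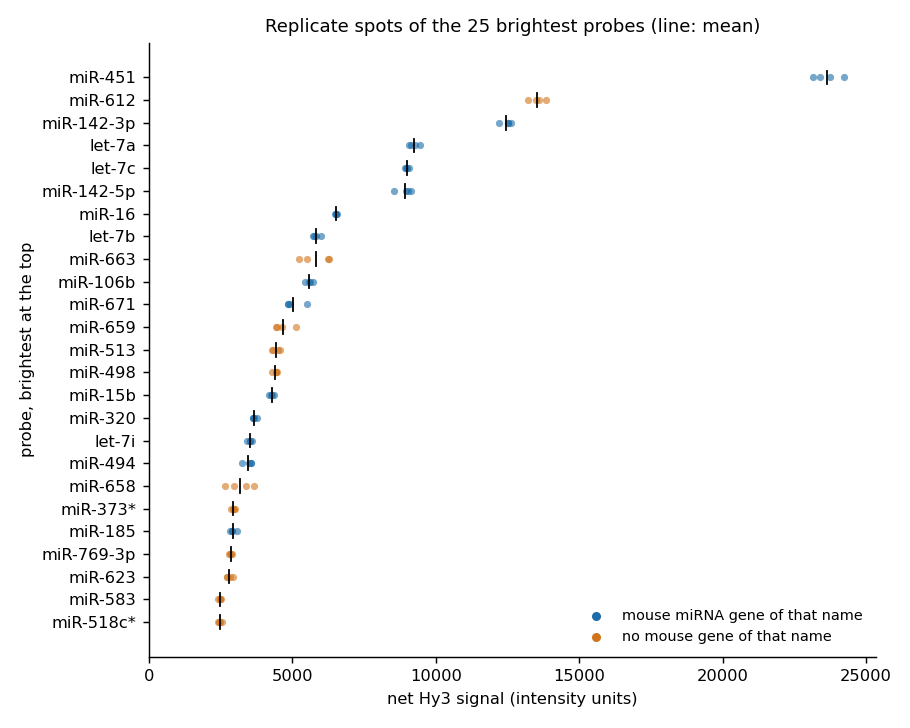
Net Hy3 signal (intensity units, linear axis from 0) of each replicate spot of the 25 brightest probes, with the mean as a line, blue for a mouse miRNA gene of that name and orange for none. The miR-451, miR-612 and miR-142-3p probes are separated from all probes below them, and relative to their mean the miR-663 and miR-658 spots are the most widely spread.

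Replicate spots scattered more for the probes without a mouse name. Over the bright and middle classes together, the median coefficient of variation across spots was 2.55% for the 36 mouse-named probes (0.343 to 12.7%) and 5.37% for the 24 others (1.34 to 43.7%). The widest was miR-584, with spots of 1259, 2410, 1162 and 1019 (mean 1463 ± 640). The ranges of both sets overlapped.

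The 41 probes of the chromosome 19 cluster, a family found in primates and expressed chiefly in placenta, have no mouse gene of their names. Of these 22 were detected, against 253 of all 450 members. The median net signal was 23.8 over all 41, and 78.5 over the 22 left without the spots of flags 2, 3 and 4. In the middle class were miR-518c* at 2463 ± 57.1, miR-512-5p at 1489 ± 107 and the joint miR-518f* and miR-526a probe at 895 ± 59.0. The next was miR-519e* at 484 ± 105. The dimmest detected were the joint miR-517a and miR-517b probe at 23.8 ± 1.16 and miR-518a at 19.1 ± 6.05, both below the brightest negative control. The opposite arms of the first 3, miR-518c at 3.86 ± 1.19, miR-512-3p at 1.76 ± 1.97 and miR-518f at 6.03 ± 0.837, were at background.

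The array also carries mismatch probes for some members, marked MM1 or MM2 after the miRNA's name. For 9 bright or middle mouse-named members there were 16 of them. Their net signal had a median of 5.63% of the matching probe and ranged widely, from -0.00694% to 141%. The let-7a mismatch probes read 1865 ± 46.3, 408 ± 18.6 and 286 ± 20.2 (n = 3). The miR-16 ones read 1036 ± 44.0, 934 ± 45.8, 8.79 ± 1.99 and -0.45 ± 3.23. Mismatch signal was thus above the negative controls for all 3 let-7a and 2 of 4 miR-16 mismatch probes. It was within their range for the remaining miR-16 ones.

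Some mismatch probes were as bright as their match or brighter: 0 of 9 for bright members, 2 of 8 for middle, 11 of 62 for dim and 20 of 34 for background members. The miR-125a mismatch probe read 1900 ± 1029 beside 1343 ± 122 for its match, a difference within its spot spread. For miR-198, without a mouse name, the mismatch probe read 1832 ± 172 beside 1204 ± 70.9. Relative to the signal of the match, the largest excesses lay among the dim and background members. A miR-302b* mismatch probe read 1397 ± 79.2 beside 24.96 ± 1.06, a miR-92b one 573 ± 11.5 beside 24.2 ± 1.29, and that of miR-17-3p 425 ± 26.2 beside 6.30 ± 1.48. The let-7f mismatch probe read 353 ± 9.56 beside 93.3 ± 4.70, and that of miR-144 read 300 ± 6.98 beside 89.1 ± 1.44. These members and the single arms above were picked after their values were seen.

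Base composition tracked the signal weakly at most. Mouse sequences were taken from the RefSeq table where the mature arm could be assigned, and those with a gene on 1 particular chromosome were left out. This left 133 members with a single mature sequence. Their median G+C content was 42.9% in the 7 bright and 45.5% in the 19 middle probes. It was 44.5% in the 82 dim and 45.5% in the 25 background probes. Across the 108 detected ones, Spearman's rho of net signal was 0.09 with G+C content, 0.29 with purine content and 0.08 with length. These points share 1 array and include related sequences, and are given as a description.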

How the data were processed

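Per the file headers, each deposited table lists, by spot, a mean and a median signal with the median and SD of the local background. All 4 are linear intensity values from the scanner, which the authors had not normalized. Spots also carry a quality flag, deposited as a score without a key. The sources used here name no scanner or image software. Only the Hy3 table of the control array was used, and 6 other files were not.

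Background median was subtracted from signal mean, spots with flag 3 were left out, and spots of a probe were averaged. No normalization was needed within 1 array. No member spot exceeded a signal mean of 24313. Members and lists were chosen with earlier results of these data known. The 25 brightest probes, 2 on each side of a class limit, and of each list all detected members up to 8, otherwise the 4 brightest and 2 dimmest, are named, as are both arms of bright hairpins; others named were chosen after their values were seen. The class rule was tested on simulated data with signals clear of the class and detection limits, so it was not tested near those limits. The design assumed mouse names; names were matched to RefSeq genes (GRCm38.p6). The tools were Python 3.11.15, pandas 2.3.3, numpy 2.4.6, scipy 1.17.1, matplotlib 3.10.9, R 4.3.3 and limma 3.58.1.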

Additional observations from a re-analysis of the deposited data

Results flagged for a closer look

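Probes outside the ranked set also gave signals above the negative controls, whose brightest probe read 40.0. Of 151 probes named miRPlus, 64 were detected by the rule of 2 background SD, which 3 of 8 negative controls also passed. The brightest miRPlus probe read 32237 ± 1418. Of 736 probes without a known human target, 456 were detected by that rule, and the brightest read 51254 ± 501. Both exceeded the brightest member, miR-451, and their RNA targets were not analysed here.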

How the results depend on the processing

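The miR-451 probe was the brightest under all 18 alternatives. Those that change only a class limit or the detection rule, or keep only mouse-named probes, could not alter this. The net signal of miR-451 was 16198 with the signal median in place of the signal mean. It was from 23424 to 23784 when each spot copy was left out. The number of bright probes was 3 with a limit of 10000 and 23 with a limit of 2500, and the number of middle probes was 74 with a lower limit of 250. With mouse-named probes only, 27 middle and 165 detected probes remained, and 14 of the 25 brightest were shared. Detection above the brightest negative control, an alternative chosen after seeing the data, kept 194 probes, and a limit of 3 background SD kept 218. Leaving out each spot copy gave 10 to 11 bright, 49 to 51 middle and 251 to 255 detected probes, with 24 to 25 of the 25 brightest shared. Of 323 comparisons of list medians with an alternative, those where only a class limit or the detection rule changed could not move. In 55 the median moved by more than the spot SD. These were 17 each with no background subtraction and with normexp, which keep the background or add an offset, and among the rest 9 without the spots of flags 2, 3 and 4. The last setting left 260 of 450 members, and all 190 lost were at background. It moved the median of the miR-29 family from 48.4 to 596, of the myeloid and platelet list from 6.65 to 164, of the epithelial list from 14.7 to 56.9, of the stromal list from 20.1 to 59.3, of the miR-17-92 list from 136 to 331, of the Dlk1-Dio3 cluster from 8.70 to 64.6 and of the primate cluster from 23.8 to 78.5. With no background subtraction the last 2 medians were 86.2 and 103, and with normexp 78.4 and 93.6. With mouse-named probes only, the miR-15/16 median was 210 in place of 131. The cause of the other differences was not tested. Signals near 40.0 cannot be told from the negative controls. No paired analysis was possible because 1 array was used.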

Other observations

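Of the small-RNA control probes the brightest, for SNORD3@, lay above all members at 30069 ± 602, and the 2 U6 probes read 8102 ± 132 and 2765 ± 75.0. Of 13 such probes 9 were detected.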
